A study of Dugesia japonica with 16 samples.

Results

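The 200 components described here are those whose abundance differed most between replicate libraries of *Dugesia japonica*, a freshwater planarian, within the same treatment group. A component pools all assembled transcripts whose identifiers differ in their final sequence number alone, and its level is the sum of their TPM (length-corrected abundance relative to the library total). Components with a mean of 10 TPM or more over the 16 libraries were ranked by the standard deviation of L, where L is log2(TPM + 1), pooled within the 4 treatment groups. The 200 highest were taken from 9947 such components, out of 16873 in all. They hold 448 of the 44857 transcripts. The members were chosen by this pooled SD of L in all 16 libraries, so its size is described without a test. The values at the edge of the choice were close: the last members, comp138131_c0 and comp105176_c0, had pooled SDs of 0.2935 and 0.2932, and the next components, comp133993_c0 and comp146465_c0, had 0.2926 and 0.2924.

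Worms were starved for 7 days at 20 °C and decapitated behind the eyes. The remaining posterior pieces stood for 48 h in water with 10 nM MCTR3, 10 nM PCTR3, 10 nM RCTR3 or vehicle (0.1% ethanol), with 4 libraries per group. The compounds are cysteinyl conjugates made from docosahexaenoic acid in the maresin, protectin and resolvin families. Every group shares the starvation, the wound and the polyadenylated RNA preparation. The labels give no ethanol content for the groups with a compound, no strain or clone and no number of worms per library. They also do not say that replicates came from separate batches of worms, so p-values reflect library-to-library spread alone, and that spread may be technical.

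Planarians rebuild missing parts from neoblasts, adult stem cells scattered through the body, which divide after wounding and feed a blastema at the cut surface. Existing tissue is re-patterned at the same time. In bulk RNA, fewer cells of a type and less RNA per cell cannot be told apart. The file pairs identifiers with no gene names, so neither gene roles nor markers of the labelled tissue were analysed here, and members are given by identifier. The values are TPM, so the read depth behind them is unknown.

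The members were spread over the whole range of abundance. Their mean levels ran from 10.0 to 6164 TPM with a median of 22.7 TPM, against a median of 30.9 TPM in the rest. Ranked by abundance and divided into 5 bins of equal size, 3.52% of components were members in the lowest bin (median 12.8 TPM), against 1.41% to 1.91% in the other bins. The highest bin (median 150.9 TPM) held 34 members, so high spread was not limited to rare RNA. All 200 were above 0 in every library. The pooled SD of L had a median of 0.332 among members and 0.111 among the rest. Across the 16 libraries the highest library exceeded the lowest by a median of 2.98-fold in members and 1.47-fold in the rest. Within at least 1 treatment group the highest library was more than 2-fold above the lowest in 153 members and in 60 of the other components.

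**Figure D1:**
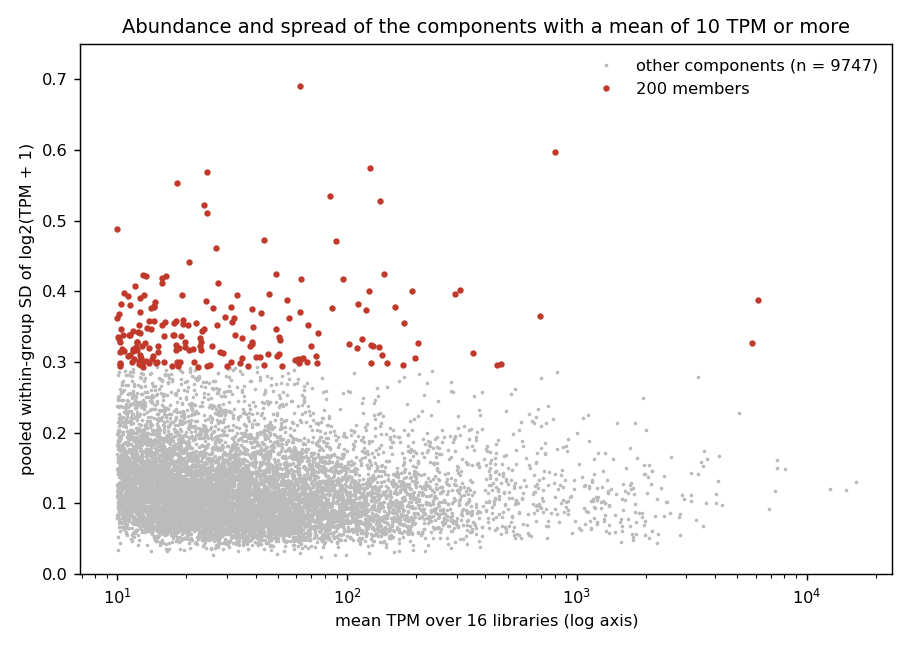
Pooled within-group SD of log2(TPM + 1) against mean TPM over 16 libraries (log axis) for 9947 components, with the 200 members in red. Members lie above an SD of 0.2932 at every abundance, and the highest, comp140321_c1, reaches 0.690.

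The component with the largest spread, comp140321_c1 (2 transcripts), owed it mostly to 1 library. Its level was 59.4, 63.3, 52.0 and 88.5 TPM in MCTR3 replicates 1 to 4, 59.2, 49.8, 53.9 and 46.3 TPM with PCTR3, 52.2, 7.28, 49.0 and 52.2 TPM with RCTR3, and 93.4, 81.4, 90.4 and 102 TPM in vehicle. RCTR3 replicate 2 lay far below the other RCTR3 libraries and held 69.3% of the component's squared deviations from the group means. comp138204_c0, also among the 10 with the highest spread, had the same low library: 6.21 TPM in RCTR3 replicate 2, against 28.7 to 36.7 TPM in the other RCTR3 libraries. comp140066_c0 and comp139316_c0, from the same 10, were low there too, at 6.31 TPM (others 18.2 to 30.2 TPM) and 11.9 TPM (others 33.8 to 40.5 TPM). The same held for comp123851_c0, the most abundant member with a mean of 6164 TPM. Its RCTR3 libraries stood at 7389, 2398, 6325 and 6404 TPM, and those of the remaining groups lay between 5337 and 7515 TPM.

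comp127071_c0, the next in spread, varied in several groups at once. Its level was 589, 550, 465 and 479 TPM with MCTR3, 790, 1584, 688 and 929 TPM with PCTR3, 1706, 857, 809 and 1352 TPM with RCTR3, and 638, 746, 477 and 178 TPM in vehicle. Vehicle replicate 4 was the lowest of all 16 libraries, PCTR3 replicate 2 was the highest of its group, and the MCTR3 libraries were the closest together. comp84463_c0, the third in spread, was also lowest in vehicle replicate 4, at 49.5 TPM, and its PCTR3 replicate 2, at 273 TPM, was far above the other PCTR3 libraries (73.9 to 123 TPM). comp137156_c4 was lowest in vehicle replicate 4 as well, at 2.58 TPM against 12.1 to 15.6 TPM in the other vehicle libraries. Its RCTR3 replicate 2, at 32.5 TPM, was the highest of the 16, unlike the components above, which were low there. comp138201_c0, which falls in none of the sets that vary together, was lowest in vehicle replicate 4 too, at 57.1 TPM, and highest in vehicle replicate 3, at 230 TPM.

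**Figure D2:**
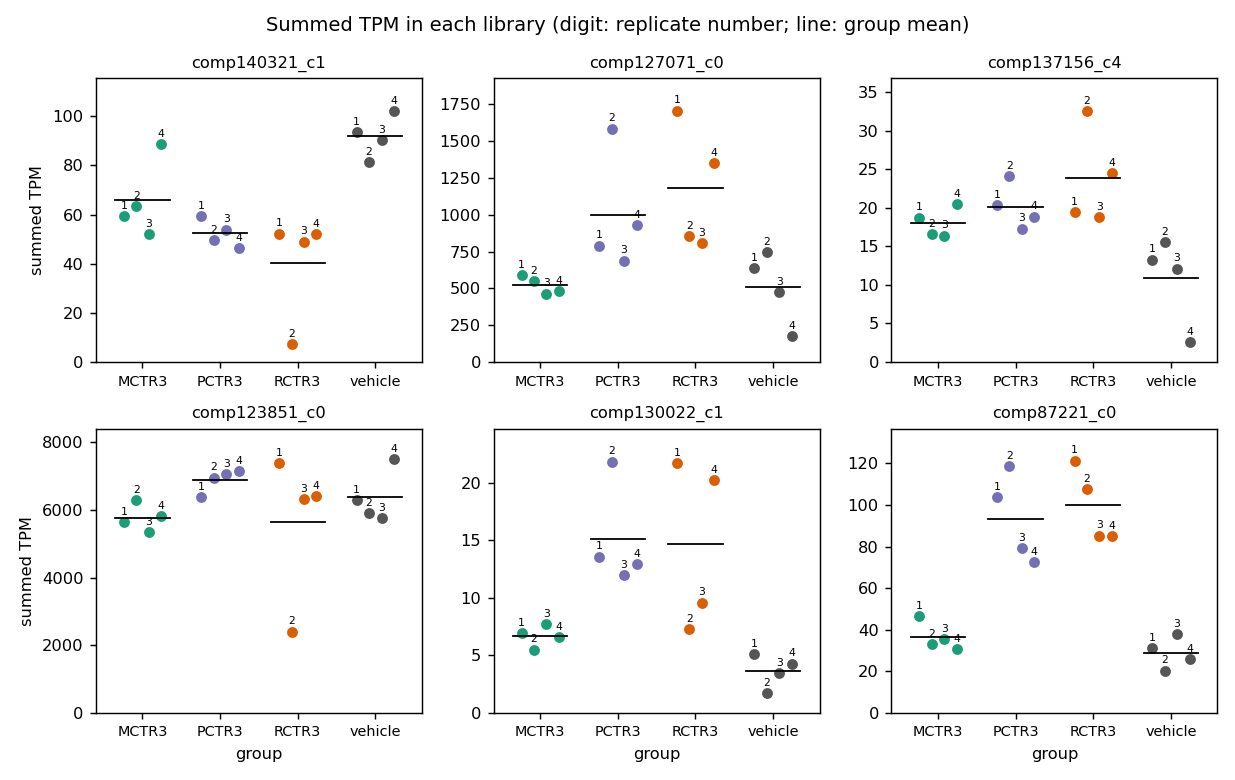
Summed TPM of 6 members in each library (linear axes from 0; digits are replicate numbers, lines are group means). RCTR3 replicate 2 stands apart in comp140321_c1 (7.28 TPM) and comp123851_c0 (2398 TPM), and vehicle replicate 4 in comp127071_c0 (178 TPM) and comp137156_c4 (2.58 TPM).

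Spread was not even across groups or libraries. The median SD of L over members was 0.179 with MCTR3, 0.325 with PCTR3, 0.346 with RCTR3 and 0.365 in vehicle, and 0.0763, 0.111, 0.100 and 0.107 over the rest, in the same order. MCTR3 libraries held 9.96% of all squared deviations of the members and 15.1% of those of the rest. Single libraries weighed most in the other groups: RCTR3 replicate 2 held 18.5%, vehicle replicate 4 16.7% and PCTR3 replicate 2 11.2% among members. Among the rest these libraries held 10.1%, 14.7% and 11.6%. RCTR3 replicate 2 had the largest deviation in 57 members and vehicle replicate 4 in 64. For 26 members (13%) 1 library alone held more than 50% of the squared deviations, 15 of them through RCTR3 replicate 2 and 11 through vehicle replicate 4, while 3.51% of the rest were of this kind.

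These libraries also stood at the ends of the library measures. RCTR3 replicate 2 had the lowest TPM sum (926.1 kTPM) and the most transcripts at 1 TPM or more (26124). Vehicle replicate 4 had the highest sum (1129 kTPM) and the fewest such transcripts (24196). The sums also differed between groups, with means of 952.6 kTPM for RCTR3 and 1065 kTPM for vehicle. PCTR3 replicate 2 was next in transcripts (26048). There 160 members were above their group mean, against 43 in RCTR3 replicate 2. The part of these measures in the spread was not tested beyond rescaling: with a common TPM sum, 184 of the 200 were chosen again. Without RCTR3 replicate 2 the rule chose 147 of the 200 again, and without vehicle replicate 4 it chose 149.

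High spread in some groups went with high spread in a group that had no part in the choice. When the rule was applied to 3 groups only, the 200 components chosen had a median SD of L in the group left out of 0.154 with MCTR3, 0.268 with PCTR3, 0.236 with RCTR3 and 0.251 in vehicle. The remaining components had 0.0764, 0.111, 0.100 and 0.107 in those same libraries. The chosen components were thus 2.02, 2.40, 2.35 and 2.34 times as spread as the rest. Of each 200, between 177 and 187 lay above the median of the rest. Between 34 and 57 were also among the 200 most spread of the group left out, where 2.01% of all components are by definition. Each of these lists shared between 143 and 179 components with the members.

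Members moved together between replicates more often than other components did. After the group means were removed, deviations of 2 members across the 16 libraries (12 residual degrees of freedom) had a median Pearson r of 0.351, against 0.0198 for pairs of the other components. An r of 0.7 or more was found in 20.9% of member pairs and 3.19% of other pairs. Opposite movement was rare: an r of -0.7 or less occurred in 0.739% of member pairs and 2.47% of other pairs. All pairs share the same libraries, so these correlations are descriptions. Members were also chosen by the size of these same deviations, so the choice itself may favour the contrast with other components, here and in the directions below. One direction held 47.6% of the squared deviations of the members, and the next 16.2%, against 33.6% and 15.2% in the rest.

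Average-linkage clustering of the deviations, cut at a mean r of 0.6, put 147 members into 5 sets of at least 5 components. The sets held 88, 27, 16, 8 and 8 members, and 53 members belonged to none. As the sets were built from the values, no test is given for them. Leaving out any 1 library left between 149 and 164 members in such sets.

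**Figure D3:**
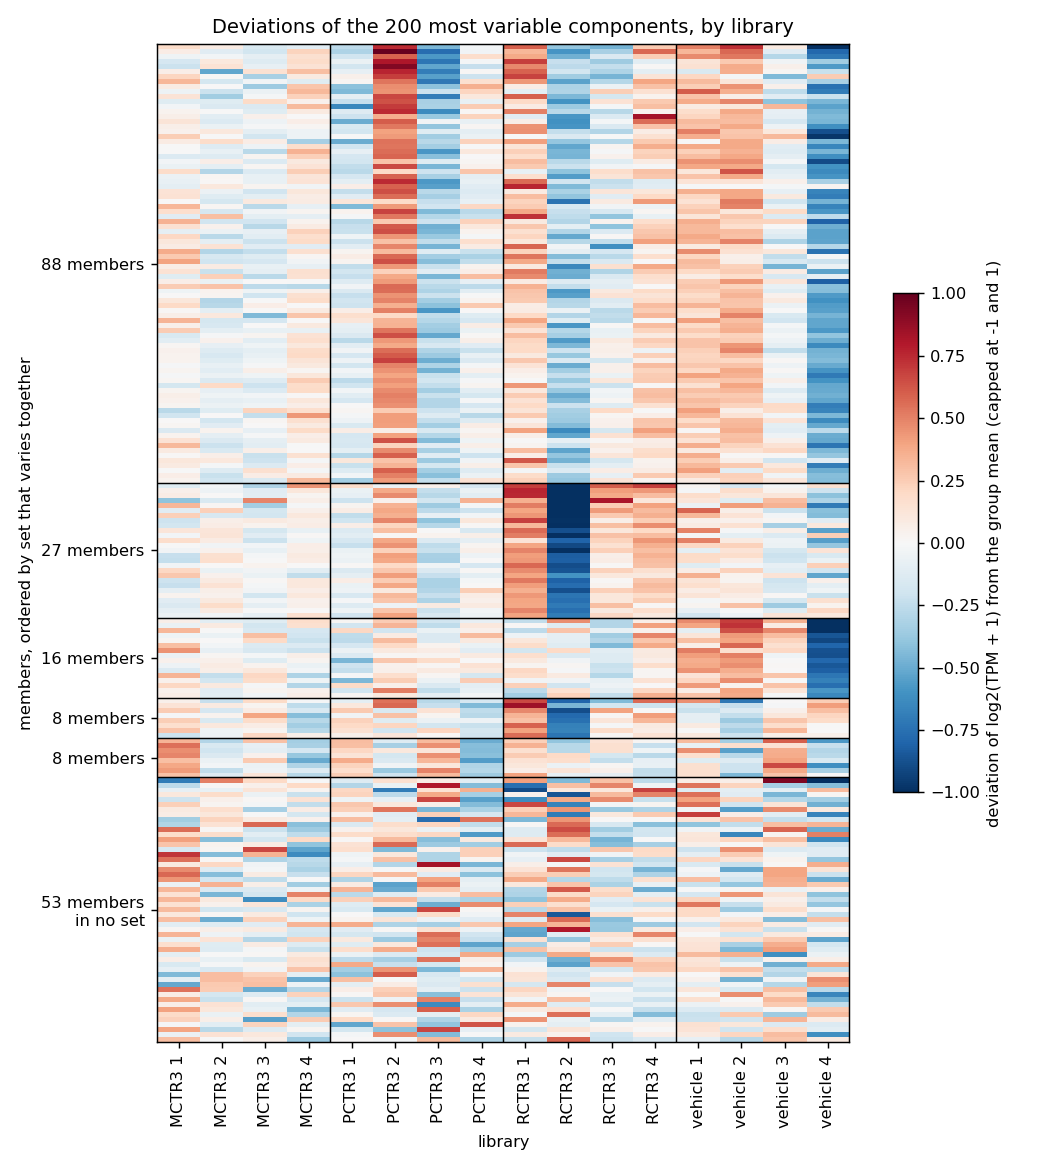
Deviation of log2(TPM + 1) from the group mean (colour, capped at -1 and 1) for the 200 members (rows, ordered by set) in 16 libraries (columns). The 88 members of the first set are above their group mean in PCTR3 replicate 2, and the 27 of the second are below it in RCTR3 replicate 2.

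The 88-component set carried the main direction of spread. Its mean deviation of L was 0.06, -0.07, -0.09 and 0.10 in MCTR3 replicates 1 to 4, -0.14, 0.50, -0.35 and -0.01 with PCTR3, 0.26, -0.36, -0.08 and 0.18 with RCTR3, and 0.26, 0.29, -0.04 and -0.51 in vehicle. All 88 were above their group mean in PCTR3 replicate 2, and 0 of 88 in PCTR3 replicate 3 and in RCTR3 replicate 2. In vehicle, 85 and 86 of 88 were above it in replicates 1 and 2, and 2 of 88 in replicate 4. The median r between its members was 0.767. It was 0.728 without vehicle replicate 4, 0.726 without PCTR3 replicate 2 and 0.764 without RCTR3 replicate 2, so it stayed above 0.7 without each of these libraries. The rule chose 59, 62 and 72 of the 88 again without these libraries, in the same order. Pairs with an r of 0.7 or more made up 68.5% with all libraries, 57.4% without vehicle replicate 4 and 55.6% without PCTR3 replicate 2.

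comp146524_c0, comp145561_c2 and comp134150_c1 followed the mean of this set most closely, with r of 0.980, 0.977 and 0.977. comp146524_c0 stood at 58.7, 53.5, 53.9 and 61.6 TPM with MCTR3, 59.8, 94.5, 54.7 and 66.9 TPM with PCTR3, 75.9, 50.5, 69.6 and 82.7 TPM with RCTR3, and 69.1, 67.6, 52.1 and 38.3 TPM in vehicle. PCTR3 replicate 2 was the highest of the 16 libraries and vehicle replicate 4 the lowest, 2.47-fold apart. Abundance in the set ranged from 10.3 to 5807 TPM (median 23.6 TPM). Its most abundant member, comp145383_c0, stood at 4808, 7725, 4903 and 5855 TPM with PCTR3, 6106, 3638, 6369 and 7419 TPM with RCTR3, and 7655, 7359, 4545 and 5997 TPM in vehicle, and its MCTR3 libraries lay between 4854 and 5431 TPM.

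The pattern of the 88 reached far into the other components, at lower amplitude and in both directions. Among the components outside the members, 946 (9.71%) had an r of 0.7 or more with the mean of the set, and 1217 (12.5%) an r of -0.7 or less. Their median pooled SDs of L were 0.144 and 0.123. The components that moved against the set were thus more numerous than those that moved with it, but lay further below the spread that admitted members.

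The 27-component set rested mostly on 1 library. Its mean deviation was -0.98 in RCTR3 replicate 2 and 0.47, 0.23 and 0.29 in RCTR3 replicates 1, 3 and 4. All 27 were below their group mean in RCTR3 replicate 2 and above it in the other 3 RCTR3 libraries. The remaining groups gave deviations between -0.20 and 0.28. RCTR3 replicate 2 held 54.0% of its squared deviations, and without that library the median r fell to 0.446, against 0.83 with it, and 5 of the 27 were chosen again. This set was the most abundant, with a median of 74.2 TPM and a highest mean of 6164 TPM. Its closest followers were comp138204_c0, comp141933_c4 and comp134841_c0 (r between 0.961 and 0.981). comp141933_c4 stood at 148, 31.7, 114 and 108 TPM in the RCTR3 libraries.

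The 16-component set in turn rested mostly on vehicle replicate 4, where its mean deviation was -0.87, against 0.28, 0.43 and 0.15 in vehicle replicates 1 to 3. All 16 were below their group mean there, and in RCTR3 replicate 2 the set stood at 0.04, so it did not share the low library of the 27. Vehicle replicate 4 held 50.4% of its squared deviations. Without that library the median r was 0.310, against 0.745 with it, and 0 of the 16 were chosen again. comp133853_c0, with a mean of 691 TPM the most abundant of the 16, stood at 737, 785, 697 and 318 TPM in vehicle. comp145342_c0, which had the highest r with the mean of the set (0.958), stood at 146, 155, 113 and 61.9 TPM there.

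The smaller sets resembled these to different degrees. The 8 members led by comp130594_c0 were low in RCTR3 replicate 2 (mean deviation -0.72) and high in RCTR3 replicate 1 (0.52), but not low in vehicle replicate 4 (0.18). RCTR3 replicate 2 held 33.0% of their squared deviations. Without that library their median r was 0.570, against 0.723 with it, and 2 of these 8 were chosen again. The 8 led by comp132444_c0 had no dominant library: none held more than 13.4% of their squared deviations. Their mean deviation was 0.41, -0.16, 0.05 and -0.30 with MCTR3, 0.24, -0.16, 0.33 and -0.41 with PCTR3, 0.22, -0.07, 0.00 and -0.15 with RCTR3, and 0.15, -0.25, 0.40 and -0.31 in vehicle. In each of the 4 groups the mean was above 0 in replicates 1 and 3 and below 0 in replicates 2 and 4. RCTR3 replicate 3 was above 0 by only 0.003. All 8 were above their group mean in MCTR3 replicate 1, PCTR3 replicates 1 and 3, RCTR3 replicate 1 and vehicle replicate 3. They were also the least abundant set, with means between 10.2 and 19.0 TPM.

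**Figure D4:**
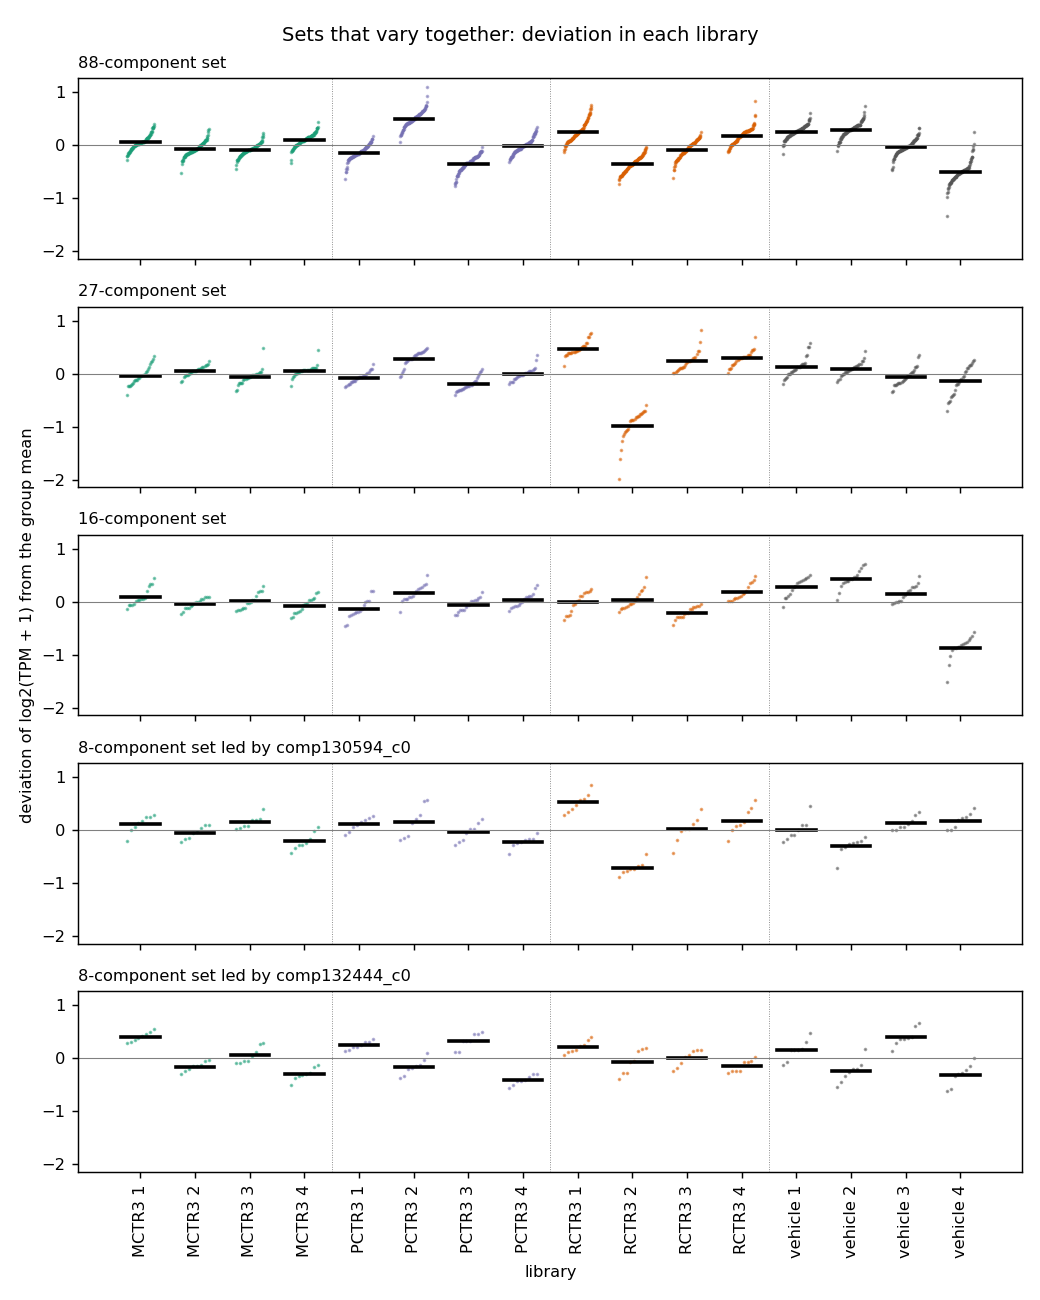
Deviation of log2(TPM + 1) from the group mean in each of 16 libraries for the 5 sets, with 1 point per member and a bar for the mean of the set. The 88-component set moves in PCTR3, RCTR3 and vehicle, the 27-component set mainly in RCTR3 replicate 2 (-0.98) and the 16-component set mainly in vehicle replicate 4 (-0.87).

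Across the 16 libraries the mean deviations of the 88 correlated with those of the 27 (r = 0.684) and of the 16 (r = 0.705), while the 27 and the 16 had r = 0.157 with each other. The highest r between sets was 0.739, for the 27 and the 8 led by comp130594_c0. These values are descriptions over libraries that share the group means removed, and leaving out the library that dominates a set changes the set itself.

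Transcripts of the same component mostly moved together in members, and mostly did not in other components. In 80 members with at least 2 transcripts of 1 TPM or more on average, the deviations of the most abundant pair had a median r of 0.622, were positive in 70 and reached 0.7 in 32 (40.0%). In 4079 other components the median was -0.235, and 2.82% reached 0.7. The choice favours this, because a sum varies more where its parts move together. In comp127071_c0 the 2 main transcripts had r = 0.898, and in comp138578_c0 r = 0.986. 10 members had a negative r, the lowest being comp138996_c1 (r = -0.627). Single-transcript components made up 113 members (56.5%) and 51.3% of the rest. Of 3 pairs of members that share an assembly number, comp137156_c4 and comp137156_c2 had r = 0.875, comp138578_c0 and comp138578_c1 had r = 0.768, and comp126198_c5 and comp126198_c1 had r = 0.382.

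The levels of the members also differed between treatments. The ranking by spread did not use these differences, but the minimum mean of 10 TPM was taken over all 16 libraries. Members near that minimum may have passed it only through the groups where they were high. The comparisons asked whether components that vary between replicates change with each conjugate. They were tested with limma (4 group means, empirical Bayes moderation, adjusted p under 0.05 by Benjamini-Hochberg over 9947 components). Because members were chosen for a large spread, their standard errors were large (median 0.203 in L, against 0.0780 in the rest), so fewer calls follow from the choice. The labels number vehicle and MCTR3 libraries 1 to 8 and PCTR3 and RCTR3 libraries 9 to 16, so treatment and position in the numbering cannot be told apart between those sides.

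With PCTR3, 68 members rose and 11 fell against vehicle. The 79 calls are 39.5% of the members, beside 48.6% called over all components (19.8% higher and 28.8% lower), so the members were not called more often, but their calls lay mostly on the side of higher levels. Their median change in L was 0.38, against -0.04 in the rest. Many members vary together between replicates, so their calls, here and below, are not independent of each other. comp130022_c1 stood at 13.6, 21.9, 11.9 and 12.9 TPM with PCTR3, against 5.10, 1.71, 3.46 and 4.28 TPM in vehicle. The groups did not overlap, and the change in L was 1.82 (SE 0.30; limma adjusted p = 0.00023). comp127757_c1 averaged 30.8 ± 8.86 TPM with PCTR3 and 8.14 ± 2.68 TPM in vehicle (SD, n = 4 each), a change of 1.80 (SE 0.20; limma adjusted p = 4.99e-05). comp126198_c5 fell to 9.42, 4.57, 9.01 and 10.6 TPM with PCTR3, against 17.2, 17.5, 17.4 and 23.6 TPM in vehicle (change -1.13, SE 0.26; limma adjusted p = 0.0021). comp104751_c0 averaged 7.00 ± 2.20 TPM with PCTR3 and 15.5 ± 3.64 TPM in vehicle (SD, n = 4 each; change -1.05, SE 0.20; limma adjusted p = 0.00053). The means of comp130022_c1 and comp127757_c1 in vehicle were below the minimum of 10 TPM. So were those of comp126198_c5 and comp104751_c0 with PCTR3. Each of these components thus passed the minimum only through its other groups.

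With RCTR3, 74 members rose and 10 fell against the same vehicle libraries. These are 42.0% of the members, beside 54.2% over all components (21.8% higher and 32.4% lower), and the median change in L was 0.34, against -0.05 in the rest. comp87221_c0 stood at 121, 108, 85.3 and 85.1 TPM with RCTR3, against 31.1, 20.2, 37.8 and 25.7 TPM in vehicle. All RCTR3 libraries were above all vehicle libraries (change 1.78, SE 0.19; limma adjusted p = 1.59e-05). comp130022_c1 averaged 14.7 ± 7.33 TPM with RCTR3 and 3.64 ± 1.45 TPM in vehicle (SD, n = 4 each; change 1.69, SE 0.30; limma adjusted p = 0.00024). comp145514_c0 fell to 54.7, 28.7, 66.2 and 75.2 TPM with RCTR3, against 212, 133, 104 and 146 TPM in vehicle (change -1.43, SE 0.25; limma adjusted p = 0.00025). comp140321_c1, the most variable component, also fell, by 1.49 in L (SE 0.41; limma adjusted p = 0.0064). Without RCTR3 replicate 2 its change was -0.83 and the call remained.

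The size of the shift depended on single libraries. Without vehicle replicate 4 the median change of the members was 0.21 with PCTR3 and 0.19 with RCTR3, with 51 and 53 rises and 13 and 10 falls. Without PCTR3 replicate 2 the PCTR3 median was 0.23, with 47 rises and 10 falls. Without RCTR3 replicate 2 the RCTR3 median was 0.47, with 100 rises and 12 falls. With a common TPM sum, the median change of all components was 0.09 with PCTR3 and 0.11 with RCTR3, in place of -0.03 and -0.05. The median of the members was then 0.50 with PCTR3 and 0.49 with RCTR3, with 88 and 96 rises and 10 and 9 falls. The share called over all components in these settings is not given here. Counts with a library left out or a common TPM sum, here and below, therefore do not show whether members were called more often than others.

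The sets shared the direction of these changes to different degrees. The 88-component set had 36 rises and 2 falls with PCTR3, and 43 rises and 0 falls with RCTR3, with median changes of 0.41 and 0.46. The calls are 43.2% and 48.9% of the set, beside the 48.6% and 54.2% over all components. The set was thus not called more often than components in general, but nearly all its calls were rises. The 88 were grouped because they vary together, so these calls are not independent of each other. Over all components 19.8% and 21.8% were called higher, and 28.8% and 32.4% lower. Without vehicle replicate 4 the medians were 0.23 and 0.29, with 25 and 28 rises, and the median with MCTR3 was -0.06, against 0.11 with that library. Without PCTR3 replicate 2 the PCTR3 median was 0.24, with 21 rises. The mean L of this set was 5.22 ± 0.361 with PCTR3, 5.27 ± 0.280 with RCTR3 and 4.75 ± 0.373 in vehicle (SD, n = 4 each). The 27-component set had 6 rises and 0 falls with PCTR3, and 5 rises and 1 fall with RCTR3, 22.2% of the set in each comparison. Without RCTR3 replicate 2 the counts were 11 rises and 1 fall with PCTR3 and 16 rises and 1 fall with RCTR3, and the median RCTR3 change was 0.42, against 0.08 with it. Without vehicle replicate 4 the set had 3 rises with RCTR3, and without PCTR3 replicate 2 its median PCTR3 change was 0.18, against 0.30 with it. The 16-component set had 4 and 5 rises, and its median changes of 0.37 and 0.40 were 0.09 and 0.11 without vehicle replicate 4, with 4 rises and 1 fall for each compound. The sets of 8 led by comp130594_c0 and comp132444_c0 had 3 and 4 rises and 0 falls each with PCTR3. With RCTR3 they had 2 rises and 1 fall, and 4 rises and 0 falls. Without RCTR3 replicate 2 the first of these had 5 rises and 1 fall with PCTR3 and 5 rises and 0 falls with RCTR3. Without vehicle replicate 4 or PCTR3 replicate 2 it had 2 rises with PCTR3. The share called in the 3 smaller sets lay between 25% and 50%. Among the 53 members outside all sets there were 15 rises and 9 falls with PCTR3 (45.3% called), and 15 rises and 8 falls with RCTR3 (43.4% called).

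**Figure D5:**
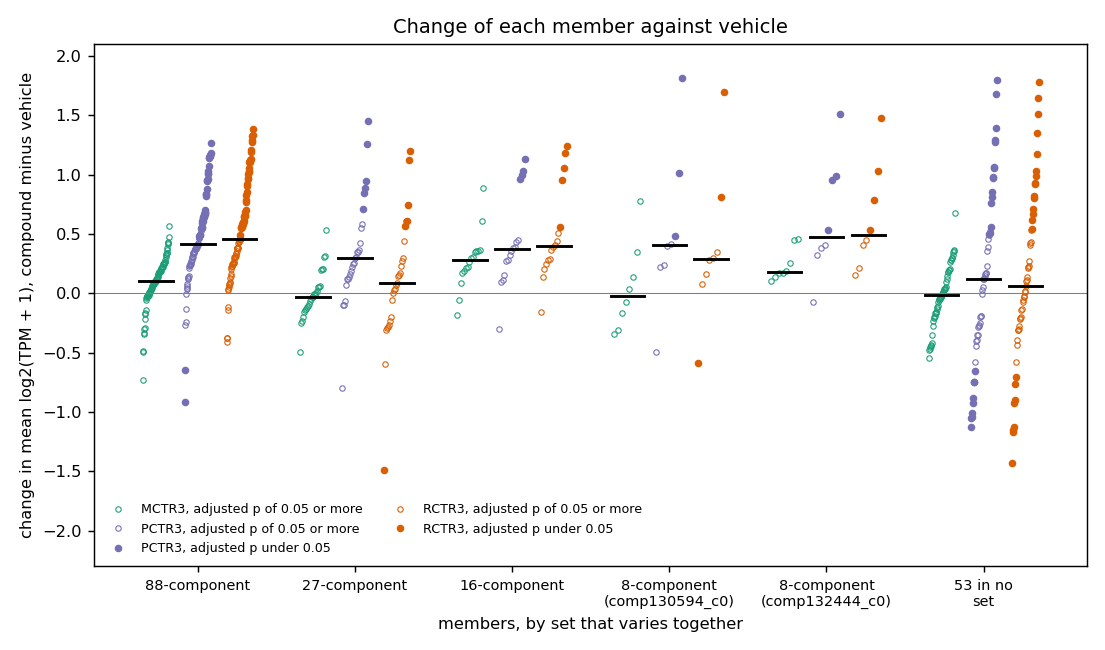
Change in mean log2(TPM + 1) of each member, compound minus vehicle, by set (filled: limma adjusted p under 0.05; bar: median). The medians of the 88-component set are 0.11 with MCTR3, 0.41 with PCTR3 and 0.46 with RCTR3.

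Components outside the members whose deviations followed the 88 also differed between treatments in the same sense. The 946 that moved with the set had 475 rises and 0 falls with PCTR3, and 548 rises and 0 falls with RCTR3. The 1217 that moved against it had 4 rises and 845 falls with PCTR3, and 4 rises and 885 falls with RCTR3. The 475 rises are 50.2% of the components that moved with the set, and 69.8% of those that moved against it were called, mostly as falls, beside the 19.8% higher and 28.8% lower of all components with PCTR3. These components were picked by their correlation with the set over the same 16 libraries. They largely share its pattern, so their counts are not independent of each other and do not replicate the change of the set. The mean L of the set itself overlapped between vehicle libraries (4.23 to 5.04) and those with PCTR3 (4.87 to 5.72) or RCTR3 (4.91 to 5.53). The comparisons with PCTR3 and RCTR3 share the vehicle libraries. Without vehicle replicate 4 the PCTR3 counts were 355 rises and 1 fall, and 7 rises and 686 falls. With a common TPM sum they were 728 rises and 0 falls, and 34 rises and 547 falls.

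Between MCTR3 and vehicle 0 members were called by limma, as were 0 of all components (0% called), and no member was called without an intensity trend or with robust moderation. Of the members, 14 (7.00%) had an unadjusted p under 0.05, against 11.6% of the rest. The median change of the members in L was 0.08, and -0.04 without vehicle replicate 4. Among members with a positive change, comp127757_c1 had the lowest p. It averaged 13.3 ± 2.01 TPM with MCTR3 and 8.14 ± 2.68 TPM in vehicle (SD, n = 4 each; change 0.67, 95% interval 0.25 to 1.10; limma adjusted p = 0.43). Among those with a negative change it was comp104241_c0, which averaged 19.7 ± 1.05 TPM with MCTR3 and 33.9 ± 7.89 TPM in vehicle (SD, n = 4 each; change -0.73, 95% interval -1.22 to -0.23; limma adjusted p = 0.43).

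The compounds were given at the same dose and time, so they could be compared directly. PCTR3 and RCTR3 differed in 0 members and in 0% of all components by limma, with 8 members (4%) and 2.68% of the rest at an unadjusted p under 0.05. The half-width of the 95% interval, which is not adjusted for the number of components, had a median of 0.43 in L among members and 0.16 in the rest. A call by adjusted p generally needs a larger difference than this half-width. comp68056_c0 had the lowest p on the side of RCTR3, with 130, 186, 77.3 and 143 TPM with PCTR3, against 290, 148, 176 and 282 TPM with RCTR3. The groups overlapped (difference -0.75, 95% interval -1.26 to -0.23; limma adjusted p = 0.999). comp143404_c2 averaged 10.4 ± 3.59 TPM with PCTR3 and 7.23 ± 0.937 TPM with RCTR3 (SD, n = 4 each; difference 0.43, 95% interval 0.04 to 0.82; limma adjusted p = 0.999).

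MCTR3 differed from both. Against PCTR3, 3 members were higher and 42 lower with MCTR3 (22.5% of members, beside 27.3% over all components, 15.4% higher and 11.9% lower). Against RCTR3, 5 were higher and 47 lower (26.0% of members, beside 37.4% over all, 22.2% higher and 15.2% lower). comp87221_c0 stood at 46.6, 32.9, 35.6 and 30.8 TPM with MCTR3, against 104, 119, 79.2 and 72.3 TPM with PCTR3, with no overlap (difference -1.32, SE 0.19; limma adjusted p = 0.0014). comp137872_c0 averaged 105 ± 21.9 TPM with MCTR3 and 242 ± 85.1 TPM with PCTR3 (SD, n = 4 each; limma adjusted p = 0.0025), and 324 ± 64.5 TPM with RCTR3 (limma adjusted p = 0.00034). comp68056_c0 was lower with MCTR3 than with RCTR3 by 1.88 in L (limma adjusted p = 0.00034). comp126198_c5 was higher with MCTR3, at 16.3, 16.3, 18.9 and 17.6 TPM, than with PCTR3 (difference 1.01, SE 0.26; limma adjusted p = 0.011) and RCTR3 (difference 1.04, SE 0.26; limma adjusted p = 0.0057). comp145514_c0 was higher with MCTR3 (108 ± 13.5 TPM) than with RCTR3 (56.2 ± 20.2 TPM; SD, n = 4 each; limma adjusted p = 0.0061). comp141858_c2 averaged 232 ± 22.2 TPM with MCTR3 and 151 ± 44.8 TPM with PCTR3 (SD, n = 4 each; limma adjusted p = 0.019). That call ended without MCTR3 replicate 4, PCTR3 replicate 1 or PCTR3 replicate 2. Without PCTR3 replicate 2, 22 members differed between MCTR3 and PCTR3, and without RCTR3 replicate 1, 33 differed between MCTR3 and RCTR3.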

How the data were processed

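The deposited values are log2 TPM per transcript, 1 column per library, made by the authors with transcript sequences of this species, per the series' design text. Kallisto and sleuth are listed in the submitters' processing notes, which state neither version nor order. The sources used here name neither the transcript set nor any filter. A TPM of 0 appears as the file minimum, -34.92. Libraries sum to between 926.1 and 1129 kTPM and not to a common total, for which no reason is stated. TPM keeps no read depth: depth is unknown, and precision rests on 4 libraries per group.

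Values were turned back to TPM, with the minimum set to 0, and summed per component. L is log2(sum + 1). The members, sets, lists and tests were chosen with earlier results of these data known. Titles of the samples gave the groups and the replicate numbers. limma 3.58.1 in R 4.3.3 fitted 4 group means to L of 9947 components, with an intensity trend, two-sided p-values and Benjamini-Hochberg adjustment. SEs, intervals and folds are on the log2(TPM + 1) scale, which understates changes of low components. Deviations are L minus its group mean. Clustering used 1 - r with average linkage, cut at 0.4 (scipy 1.17.1). The limma calls, the choice of members and the clustering were tested on simulated data, and the other steps were not. For limma the simulated noise was independent between components, unlike the deviations here.

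Components named are the 10 with the highest spread, those at the edge of the choice, 3 followers per set, the 3 most abundant, and up to 2 called in each direction per comparison, or else the lowest p. comp138578_c0, comp138996_c1 and pairs sharing an assembly number were named after their values were seen. Each of the 120 library pairs was compared, and 0 were identical. Alternatives were other filters, pseudocounts, scalings, spread measures and clusterings, a replicate block, and each library left out. The choice from 3 groups, and the counts per set without single libraries, were added after seeing the data.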

Additional observations from a re-analysis of the deposited data

Results flagged for a closer look

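In a group of 4 libraries, a value was looked at again when its gap to the nearest of the others exceeded Dixon's critical share of the group's range. Chance alone gives this in about 1 in 20 groups, and it happened in 48 of 800 groups of the members (6%) and in 6.06% of those of the other components, so single far libraries were no more frequent among members by this measure. Among 37 named members and 5 sets, 11 of 168 groups were found. RCTR3 replicate 2 was far below its group in comp140321_c1 (7.28 TPM, others 49.0 to 52.2 TPM), comp138204_c0 (6.21 TPM, others 28.7 to 36.7 TPM), comp139316_c0 (11.9 TPM, others 33.8 to 40.5 TPM), comp123851_c0 (2400 TPM to 3 significant digits, others 6325 to 7389 TPM) and comp104751_c0 (5.66 TPM, others 8.22 to 8.67 TPM). The mean deviation of the 27-component set there was -0.985. Vehicle replicate 4 was far below its group in comp137156_c4 (2.58 TPM), comp141933_c4 (42.6 TPM) and comp133853_c0 (318 TPM), and far above it in comp126198_c5 (23.6 TPM, others 17.2 to 17.5 TPM). MCTR3 replicate 2 was far below its group in comp138131_c0 (10.4 TPM, others 12.9 to 13.1 TPM).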

How the results depend on the processing

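With a minimum mean of 50 TPM, 54 members were tested. Of these, 18 were called with PCTR3 against vehicle (15 higher, 3 lower) and 20 with RCTR3 against vehicle (16 higher, 4 lower), and with MCTR3 10 against PCTR3 and 15 against RCTR3. Over all components at that filter 55.5%, 61.5%, 35.3% and 47.4% were called, in the same order. Fewer components were tested by construction. The rule chose 115 of the 200 again with a minimum of 5 TPM and 29 with no filter on low values. A filter leaves the SD of each component unchanged, so members lost there gave way to components under 10 TPM with a higher SD. With a minimum of 50 TPM, all 54 members that passed were chosen again, which the rule fixes in advance. From the most abundant transcript alone 39 of the 200 were chosen again, and the cause was not tested. Leaving out each library in turn gave 57 to 90 calls with PCTR3 and 63 to 112 with RCTR3 against vehicle, and with MCTR3 22 to 57 against PCTR3 and 33 to 78 against RCTR3. It gave 0 to 0 for MCTR3 against vehicle and for PCTR3 against RCTR3. It left 149 to 164 members in sets, and 147 to 194 members were chosen again. Over all components, 8 of 24 pairs of same-numbered libraries had deviations correlated over 0.1 (r between -0.34 and 0.50), so the numbers were not taken as pairing the samples, and 3 of 16 libraries correlated best with their own number. The 8-component set led by comp132444_c0 nevertheless had mean deviations of the same sign across the groups at every replicate number, with RCTR3 replicate 3 near 0 (0.003). With the replicate number as a block, 84 members were called with PCTR3 and 83 with RCTR3 against vehicle, and 47 between MCTR3 and PCTR3. The share called over all components with that block is not given here. These counts therefore do not show whether members were called more often than others. Of 510 alternatives for the 20 named changes, 507 kept their direction and side of the threshold, 3 lost the call (comp141858_c2) and 0 reversed. The 20 were picked in these same libraries as the largest called changes, or else the lowest p, so this count is no independent support. For MCTR3 against vehicle and PCTR3 against RCTR3, keeping the side of the threshold meant staying uncalled. The unknown read depth limits what can be said of low components.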
